A study of Mus musculus with 6 samples.

Results

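The genes described here are 10 genes of the smooth muscle contractile apparatus and its transcriptional control, chosen by gene symbol from the 23183 symbols in the count tables. They are the smooth muscle actins *Acta2* and *Actg2*, the actin-binding proteins *Tagln*, *Cnn1*, *Cnn2*, *Tpm1* and *Tpm2*, the myosin subunits *Myl9* and *Myh11*, and *Srf*, the serum response factor. RNA was sequenced from 6 mouse tumours of UV2237M, a fibrosarcoma line (a cancer of connective tissue cells), all labelled as wild type. The 3 GNC+NIR tumours received gold nanoclusters (GNC), small particles of gold, on day 1 and day 7, with near-infrared (NIR) irradiation. The 3 untreated tumours were given nothing. The labels do not say whether the tumours came from separate animals or what irradiation power was used, and there is no group with GNC alone or NIR alone, so the effects of the particles and of the light cannot be told apart. All 10 genes were in the tables, and 9 passed the filter on low counts. *Cnn1* did not pass.

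Smooth muscle cells, pericytes (the contractile cells around small vessels) and activated fibroblasts shorten by sliding myosin along actin filaments. SRF is a DNA-binding protein that turns on many genes of this machinery by binding the CArG box, a short element with C bases at its start, a run of A and T, and G bases at its end. SRF works with cofactors of different kinds. Myocardin and the MRTF proteins direct it to muscle and cytoskeletal genes, and MRTFs enter the nucleus when free actin monomers become scarce. The ternary complex factors (TCFs, such as ELK1) direct it to immediate early genes such as *Fos* after growth factor signalling. In bulk tumour RNA, fewer cells of a type and less RNA per cell cannot be told apart.

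The total count per library lay between 4680295 and 8019294, and a count of 3 corresponded to 0.368 to 0.669 CPM, the unit used for levels here, which is the count scaled to library size. Untreated 2 stood apart, with a mean distance to the other libraries of 1.22 on the log2 scale against 0.611 to 0.729 for the other 5. Genes rich in G and C were low in it. Over the fifth of genes with the highest GC content its median log2 difference from the other libraries was -0.76, and over the fifth with the lowest it was 0.76. All 9 tested members were lower in untreated 2 than the mean of untreated 1 and untreated 3, from -0.93 for *Tagln* and -0.78 for *Tpm2* to -0.11 for *Myl9* on the log2 scale. The main results are therefore also given without untreated 2. The 6 genes listed for the fibrosarcoma line, with *Vim* among them, do not mark it alone. *Col1a1* and *Col1a2* are also in the list of fibroblast markers. The 6 genes summed to 13200 to 16610 CPM in GNC+NIR tumours. In untreated 1, 2 and 3 the sum was 16220, 7991 and 15700 CPM.

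Promoter sequences are shown because the CArG box is the element that ties contractile genes to *Srf*. The RefSeq promoter table (GRCm38.p6) was searched over the 250 bases before each start for the motif of 2 C, then 6 bases that are each A or T, then 2 G. The motif reads the same way on either strand, so the search covers both, and overlapping matches were allowed. An exact match was found in 3 of the 7 member promoters in the table (*Srf*, *Cnn2* and *Myl9*), against 482 of all 32851 promoters (1.47%). Counting matches with 1 letter off, 5 of 7 held one, with *Acta2* and *Tpm1* added, against 18.6% of all promoters. *Cnn1* and *Tpm2* had neither. *Tagln*, *Actg2* and *Myh11* have no entry in the promoter table and were not searched. The promoters of the 3 genes with an exact match are printed 5′ to 3′, with the exact CArG boxes in capitals. That of *Srf* lies at chr17:46556176-46556412 (minus strand), that of *Cnn2* at chr10:79988350-79988583 (plus strand) and that of *Myl9* at chr2:156775214-156775419 (plus strand). The *Acta2* site is chr19:34255438-34255467 (minus strand), with the near match in capitals.
Srf: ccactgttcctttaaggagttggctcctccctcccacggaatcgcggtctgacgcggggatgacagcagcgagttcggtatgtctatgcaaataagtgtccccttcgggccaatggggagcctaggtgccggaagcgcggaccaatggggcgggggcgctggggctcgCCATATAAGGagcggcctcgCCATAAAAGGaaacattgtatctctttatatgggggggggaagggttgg
Cnn2: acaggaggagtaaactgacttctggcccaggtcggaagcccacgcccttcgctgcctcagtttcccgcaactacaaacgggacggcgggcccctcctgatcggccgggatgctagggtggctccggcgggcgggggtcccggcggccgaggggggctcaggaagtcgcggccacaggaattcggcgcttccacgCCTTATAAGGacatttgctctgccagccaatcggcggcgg
Myl9: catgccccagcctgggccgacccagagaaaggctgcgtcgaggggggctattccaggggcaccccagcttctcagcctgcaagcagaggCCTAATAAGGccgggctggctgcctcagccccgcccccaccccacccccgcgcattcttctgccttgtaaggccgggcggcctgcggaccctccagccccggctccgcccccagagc
Acta2 site: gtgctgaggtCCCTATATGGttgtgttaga
The 2 exact boxes of *Srf* began 82 and 62 bases before its start, and a match with 1 letter off began at 39. The exact box of *Cnn2* began at 56 bases and that of *Myl9* at 161 bases before the start. In *Acta2* the near matches began at 84 and 34 bases before the start, and in *Tpm1* at 221 and 80. A match describes the letters in this window and does not show that SRF binds there.

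**Figure D1:**
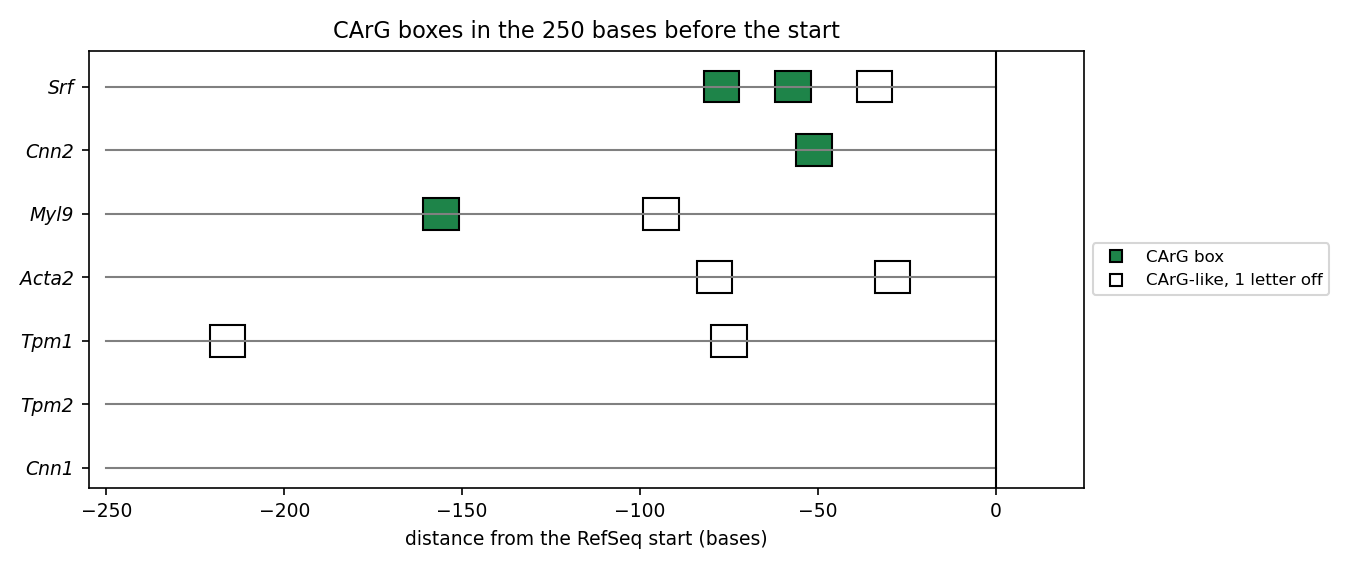
CArG boxes before the start of the 7 members in the promoter table. The x axis is the distance in bases from the RefSeq start, filled boxes are exact matches and open boxes are matches with 1 letter off. *Srf* holds 2 exact boxes, at 82 and 62 bases, *Cnn2* holds 1 at 56 and *Myl9* 1 at 161, and *Cnn1* and *Tpm2* hold none.

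The members spanned a wide range of levels, and the isoforms that define smooth muscle were the low ones. In CPM per kilobase of the longest transcript, averaged over all 6 libraries, *Tpm1* was highest at 321.2, followed by *Cnn2* at 108.4. Both are also made by non-muscle cells. *Tpm2* at 36.9, *Srf* at 29.5 and *Acta2* at 14.5 came next. The range of *Tpm2* over the libraries (20.5 to 63.1) overlapped that of *Srf* (17.1 to 39.6), and the range of *Srf* overlapped that of *Acta2* (8.41 to 20.3). *Tagln* (3.96), *Actg2* (2.95) and *Myl9* (2.65) overlapped one another. *Myh11*, the smooth muscle myosin heavy chain, averaged 0.653, and *Cnn1*, a calponin of differentiated smooth muscle, 0.0894.

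The non-muscle relatives of the members were far more abundant on the same per-kilobase scale. *Actb* and *Actg1*, the cytoplasmic actins, averaged 1620 and 1159 CPM per kilobase over the 6 libraries, against 14.5 for *Acta2* and 2.95 for *Actg2*. The non-muscle myosin heavy chain *Myh9* averaged 200.2, against 0.653 for *Myh11*. The regulatory light chain *Myl12a* averaged 160.9, against 2.65 for *Myl9*, and *Tagln2* averaged 141.4, against 3.96 for *Tagln*. These values are levels, not differences between the groups. Other contractile genes were mixed on this scale. *Lmod1*, which starts actin filaments in smooth muscle, averaged 0.118 CPM per kilobase, and *Kcnmb1*, a subunit of a smooth muscle potassium channel, 0.0739. *Mylk*, myosin light chain kinase, averaged 7.67, *Smtn*, smoothelin, 23.1, above *Acta2*, and *Cald1*, caldesmon, 122.

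GNC+NIR tumours were set against untreated ones to see what the particles and light together did to gene expression, the step that the series title names as guiding a drug combination. No member passed the threshold, an adjusted p of 0.05 by edgeR's quasi-likelihood test with Benjamini-Hochberg adjustment over 12517 genes, and neither did any other gene (0% of those tested). Of the 9 tested members, 6 had a higher and 3 a lower fitted value in GNC+NIR tumours, with a median log2 fold change of 0.40 against -0.001 over all tested genes. At an unadjusted p under 0.05, *Srf* was higher and *Actg2* lower, where 3.32% of all tested genes were higher and 4.85% lower. The values of the 2 groups did not overlap for *Srf* and *Tagln*, which were higher in GNC+NIR tumours, as 10.6% of all tested genes were, and for *Actg2*, which was lower, as 10.2% were. DESeq2 called none of the members and 57 of 11539 genes (0.494%). The labels do not show separate animals, so these p-values measure only the spread between these samples, which may be technical.

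**Figure D2:**
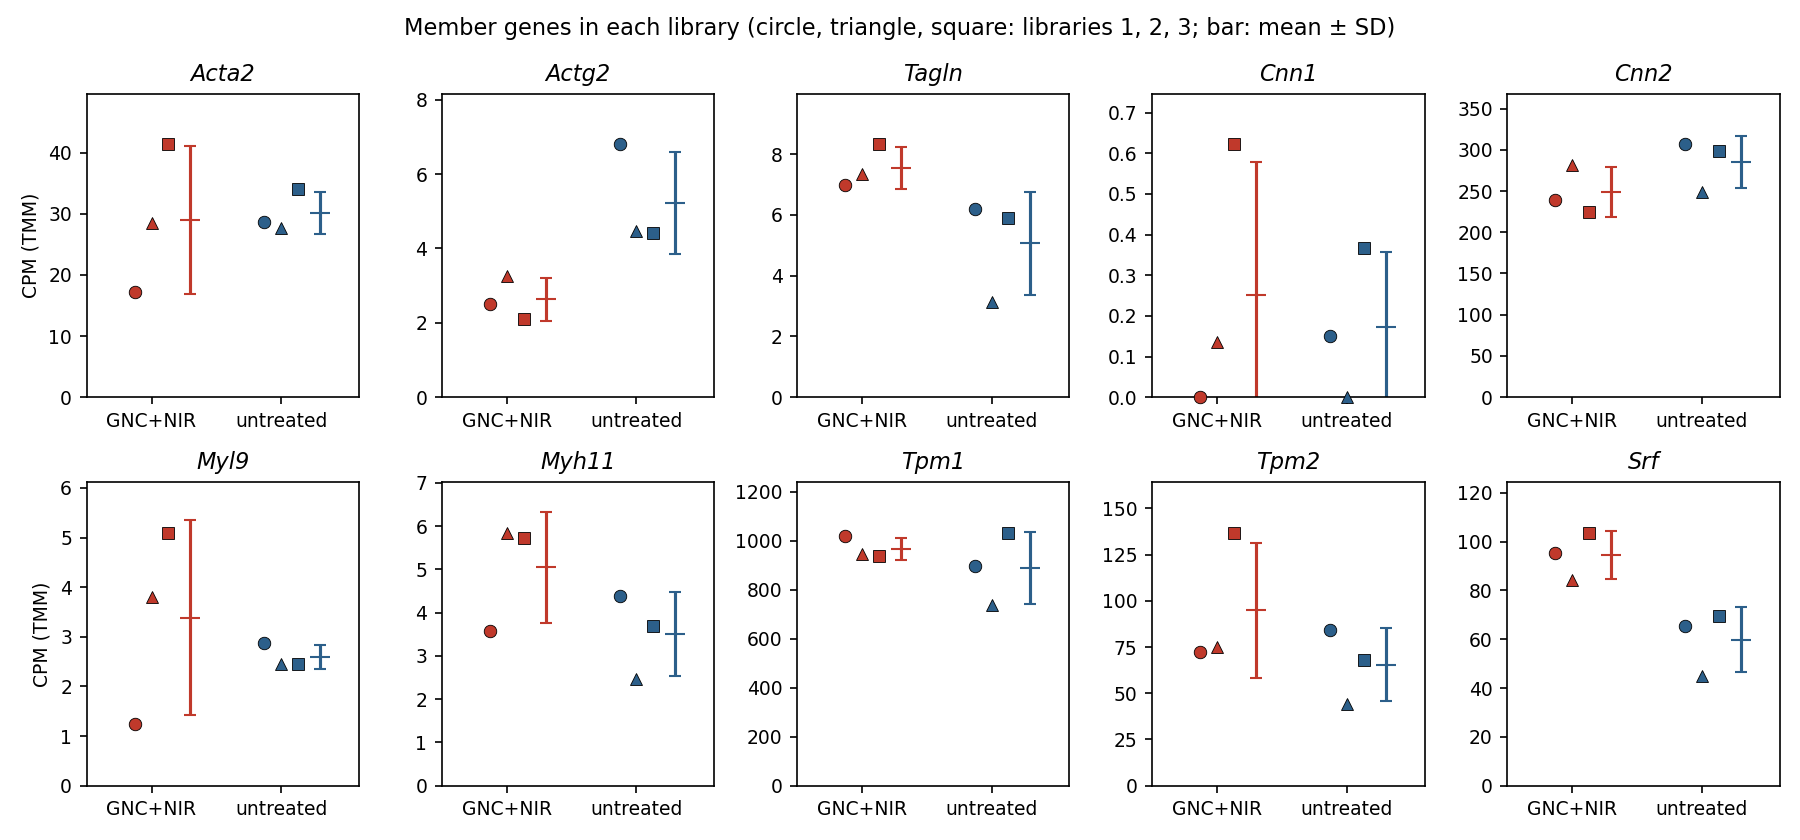
CPM of each of the 10 members in every library, on a linear axis with its own scale for each gene, GNC+NIR left and untreated right. A circle, triangle and square mark libraries 1, 2 and 3, and the bar is the mean with its SD (n = 3). *Srf* and *Tagln* are higher and *Actg2* lower in all 3 GNC+NIR libraries than in any untreated one, and *Acta2* averages 29.0 CPM in GNC+NIR and 30.1 CPM in untreated tumours.

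*Srf* (chromosome 17, 46548329 to 46556175, minus strand, mm10) codes for the only transcription factor among the members. It had 95.5, 84.2 and 103.7 CPM in GNC+NIR 1, 2 and 3, and 65.3, 44.9 and 69.4 CPM in untreated 1, 2 and 3. The lowest GNC+NIR library lay above the highest untreated one. The means were 94.5 ± 9.79 CPM in GNC+NIR and 59.9 ± 13.2 CPM in untreated tumours (SD, n = 3 each). Its log2 fold change was 0.66 ± 0.23 (SE), with an unadjusted p of 0.0255 and an adjusted p of 0.592 by edgeR's quasi-likelihood test. Its value depended on untreated 2 and on GC content, which is 64.4% in its longest transcript, the highest of the members. Without untreated 2 the log2 fold change was 0.48 ± 0.12 (edgeR's quasi-likelihood test, adjusted p = 0.227). With the trend in GC content and length removed it was 0.35 ± 0.19 (edgeR's quasi-likelihood test, adjusted p = 0.445), and the groups then overlapped. The *Srf* promoter with its pair of CArG boxes, printed above, is a textbook case of a gene that SRF itself can act on.

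The smooth muscle actins differed from each other in pattern. *Acta2* (chromosome 19, 34241090 to 34255590, minus strand), alpha smooth muscle actin and the usual marker of myofibroblasts, had 17.2, 28.4 and 41.4 CPM in GNC+NIR 1, 2 and 3, and 28.6, 27.7 and 34.1 CPM in untreated 1, 2 and 3. GNC+NIR 1 was the lowest of the 6 libraries and GNC+NIR 3 the highest, so the GNC+NIR values enclosed the untreated ones. The log2 fold change was -0.05 ± 0.33 (SE; edgeR's quasi-likelihood test, adjusted p = 0.96), and its sign turned with the library left out, from -0.40 without GNC+NIR 3 to 0.21 without GNC+NIR 1.

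*Actg2* (chromosome 6, 83512905 to 83536265, minus strand), the gamma actin of visceral smooth muscle, had 2.50, 3.27 and 2.11 CPM in GNC+NIR 1, 2 and 3, and 6.81, 4.46 and 4.42 CPM in untreated 1, 2 and 3. All GNC+NIR libraries lay below all untreated ones. These levels rest on 14 to 24 counts per GNC+NIR library and 20 to 45 per untreated library. Its log2 fold change was -0.99 ± 0.36 (SE), with an unadjusted p of 0.0285 and an adjusted p of 0.592 by edgeR's quasi-likelihood test. Without untreated 2 it was -1.09 ± 0.38 (edgeR's quasi-likelihood test, adjusted p = 0.239), and over all fits that left out 1 library it lay between -1.18 and -0.76. Removing the GC and length trend left it at -0.99. Among the tested members *Actg2* had the most negative fold change.

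Because actins are alike in sequence, the transcripts were compared in windows of 50 bases. Of the windows of *Acta2*, 0.352% were also in *Actg1* transcripts, and none was shared with *Actg2* or *Acta1*. Reads of that length would separate the muscle actins, but the read length is not given in the sources used here. Of the windows of *Myh11*, 0.4% were also in *Myh9* transcripts. *Acta1*, skeletal muscle actin, had 9.65, 0.136 and 166 CPM in GNC+NIR 1, 2 and 3, and 32.2, 11.2 and 6.01 CPM in untreated 1, 2 and 3. The 14 skeletal muscle markers, *Acta1* among them, ranked the libraries in the same order and summed to 956.6 CPM in GNC+NIR 3, against 27.2 to 297.8 CPM in the other 5 libraries. Of the members, GNC+NIR 3 was the library with the highest *Acta2*, *Tpm2*, *Tagln*, *Myl9*, *Srf* and *Cnn1*. It was not the highest for *Actg2*, *Cnn2*, *Tpm1* and *Myh11*. The part of skeletal muscle RNA in these values was not tested.

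**Figure D3:**
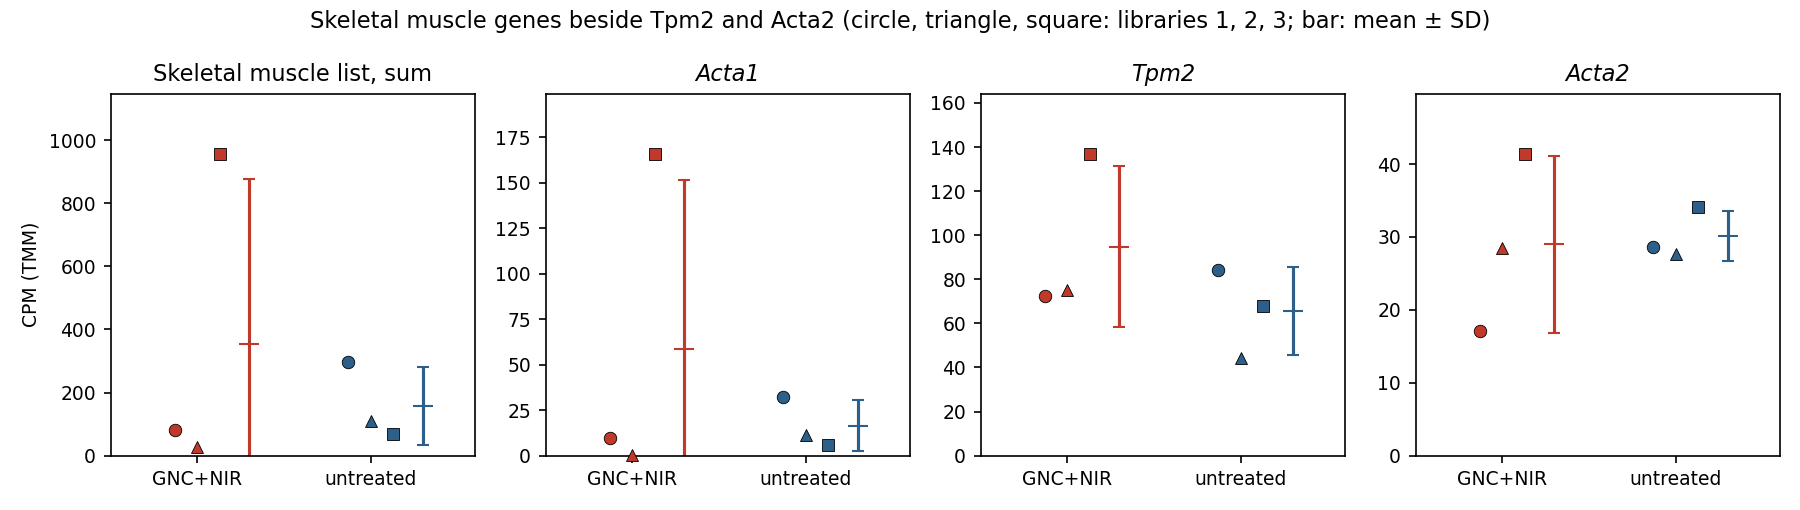
The sum of the skeletal muscle markers, *Acta1*, *Tpm2* and *Acta2* in every library (CPM, linear axes), GNC+NIR left and untreated right. A circle, triangle and square mark libraries 1, 2 and 3, and the bar is the mean with its SD (n = 3), not drawn below 0. GNC+NIR 3 has the highest sum of the 14 skeletal muscle markers (956.6 CPM) and the highest *Acta2* (41.4 CPM) and *Tpm2* (136.9 CPM).

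Of the proteins that bind the thin filament, *Tagln* was higher without overlap and the others were not separated. *Tagln* (chromosome 9, 45929619 to 45936058, minus strand), which codes for transgelin (SM22), an actin-bundling protein of smooth muscle, had 6.97, 7.35 and 8.33 CPM in GNC+NIR 1, 2 and 3, and 6.20, 3.12 and 5.89 CPM in untreated 1, 2 and 3. The gap was small, with 6.97 CPM (39 counts) in GNC+NIR 1 as the lowest value and 6.20 CPM (41 counts) in untreated 1 as the highest. For *Tagln* the log2 fold change was 0.56 ± 0.33 (SE; edgeR's quasi-likelihood test, adjusted p = 0.616), and without untreated 2 it was 0.32 ± 0.26.

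*Tpm2* (chromosome 4, 43514711 to 43523765, minus strand), beta-tropomyosin, which lies along the actin filament, had 72.4, 75.2 and 136.9 CPM in GNC+NIR 1, 2 and 3, and 84.1, 44.4 and 68.1 CPM in untreated 1, 2 and 3. GNC+NIR 3 was high and untreated 2 low, and the other 4 libraries overlapped. The log2 fold change of 0.53 ± 0.35 (SE; edgeR's quasi-likelihood test, adjusted p = 0.632) was 0.17 ± 0.33 without GNC+NIR 3 and 0.32 without untreated 2. *Tpm2* is also made in slow skeletal muscle fibres.

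*Tpm1* (chromosome 9, 67022590 to 67049406, minus strand), alpha-tropomyosin, was the most abundant member. It had 1019, 944.6 and 937.5 CPM in GNC+NIR 1, 2 and 3, and 897.2, 737.8 and 1034 CPM in untreated 1, 2 and 3. Untreated 2 was the lowest and untreated 3 the highest, and the groups overlapped. The log2 fold change was 0.12 ± 0.21 (SE; edgeR's quasi-likelihood test, adjusted p = 0.841), and without untreated 2 it was 0.00 ± 0.12. *Cnn2* (chromosome 10, 79988584 to 79996062, plus strand), the calponin of non-muscle and smooth muscle cells, had 239.2, 282.1 and 224 CPM in GNC+NIR 1, 2 and 3, and 306.9, 249 and 298.7 CPM in untreated 1, 2 and 3. The groups overlapped through GNC+NIR 2 and untreated 2, with a log2 fold change of -0.20 ± 0.20 (SE; edgeR's quasi-likelihood test, adjusted p = 0.729). Without untreated 2 they did not overlap and it was -0.29 ± 0.13. *Cnn1* (chromosome 9, 22099216 to 22109630, plus strand) had 0, 1 and 5 counts in GNC+NIR 1, 2 and 3, and 1, 0 and 3 counts in untreated 1, 2 and 3. The sums were 6 counts (95% exact Poisson interval 2.2 to 13.1) and 4 counts (1.09 to 10.2), intervals that cover counting error only, so a difference was not detectable at this depth.

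The myosin subunits were low, and their groups overlapped. *Myl9* (chromosome 2, 156775420 to 156781658, plus strand), the regulatory light chain whose phosphorylation starts contraction, had 1.25, 3.81 and 5.10 CPM in GNC+NIR 1, 2 and 3, and 2.87, 2.46 and 2.45 CPM in untreated 1, 2 and 3. GNC+NIR 1 was the lowest library and the other GNC+NIR libraries lay above all untreated ones. For *Myl9* the log2 fold change was 0.40 ± 0.52 (SE; edgeR's quasi-likelihood test, adjusted p = 0.786), and it was -0.02 without GNC+NIR 3. *Myh11* (chromosome 16, 14194535 to 14291372, minus strand) had 3.58, 5.85 and 5.72 CPM in GNC+NIR 1, 2 and 3, and 4.39, 2.46 and 3.68 CPM in untreated 1, 2 and 3. Here too GNC+NIR 1 was the lowest of its group and fell within the untreated range. The log2 fold change was 0.52 ± 0.37 (SE; edgeR's quasi-likelihood test, adjusted p = 0.646), 0.33 without untreated 2 and 0.15 with the GC and length trend removed. In GNC+NIR 1, *Acta2*, *Myl9* and *Myh11* were each at the lowest value of that group.

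**Figure D4:**
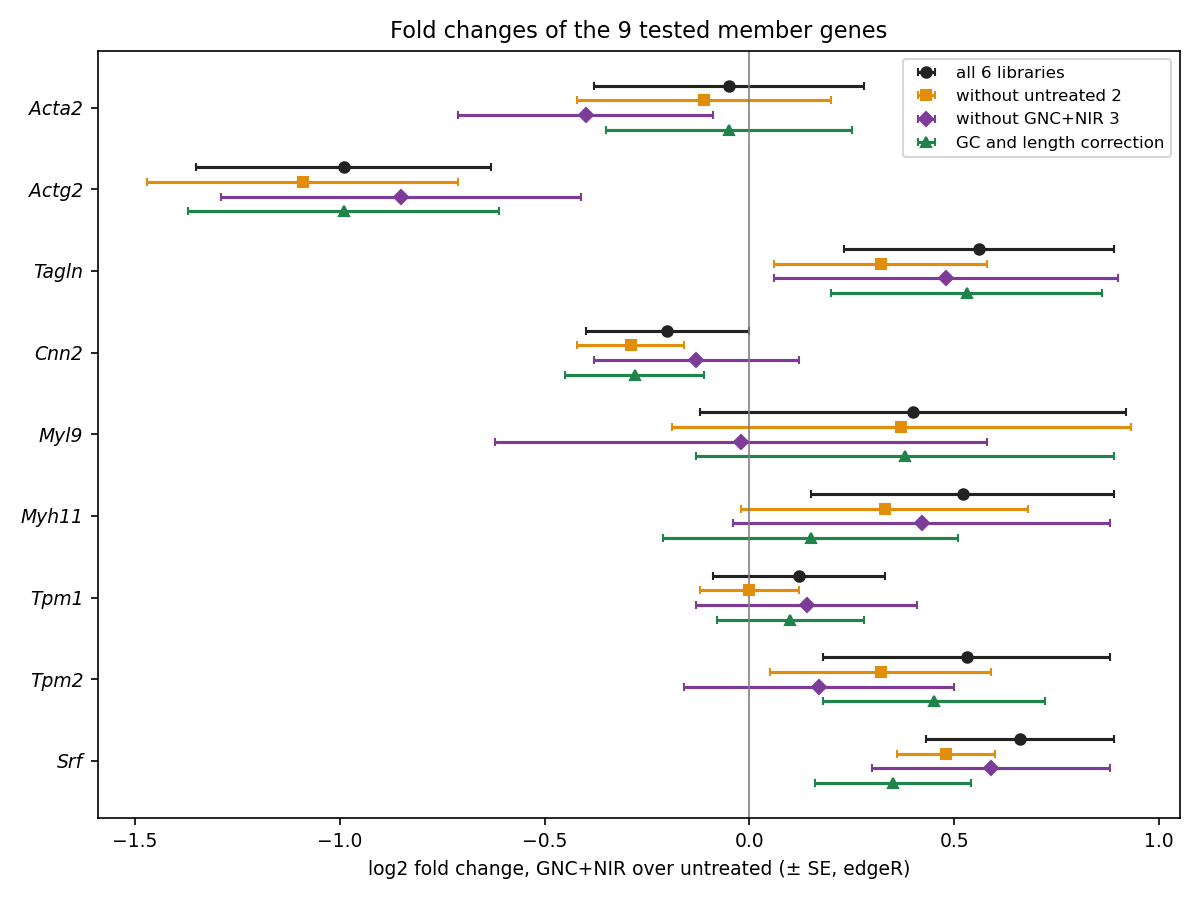
Log2 fold change of the 9 tested members, GNC+NIR over untreated, with its SE, for all 6 libraries, without untreated 2, without GNC+NIR 3 and with the GC and length trend removed. *Actg2* lies between -1.09 and -0.85 and *Srf* between 0.35 and 0.66 over the 4 fits, and *Myl9* goes to -0.02 without GNC+NIR 3.

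The unadjusted calls of *Srf* and *Actg2* depended on the libraries and the correction. Without untreated 2, *Srf* was higher and *Actg2* lower at an unadjusted p under 0.05, where 9.55% of all 12836 tested genes were higher and 8.85% lower, so the share of members there (1 of 9 in each direction) lay near that of all genes. By edgeR's quasi-likelihood test, *Srf* had an unadjusted p of 0.0726 without GNC+NIR 1, 0.0881 without GNC+NIR 3 and 0.106 with the GC and length trend removed. *Actg2* had an unadjusted p of 0.0774 without GNC+NIR 1, 0.101 without GNC+NIR 3 and 0.118 without untreated 1 in the same test. The median log2 fold change of the 9 members, 0.40 over all 6 libraries, was 0.315 without untreated 2, 0.144 without GNC+NIR 3 and 0.153 with the GC and length trend removed, against 0.001, -0.016 and -0.018 over all tested genes. Without GNC+NIR 1 it was 0.609.

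With all 6 libraries, the cofactors that steer SRF did not separate the groups. *Mkl1*, which codes for MRTF-A, had 74.2, 82.7 and 75.1 CPM in GNC+NIR 1, 2 and 3, and 72.8, 18.97 and 81.5 CPM in untreated 1, 2 and 3. *Mkl2*, which codes for MRTF-B, had 110.5, 137 and 108.9 CPM in GNC+NIR 1, 2 and 3, and 141.4, 42.9 and 127.5 CPM in untreated 1, 2 and 3. Both were low in untreated 2 alone and overlapped otherwise. *Myocd*, which codes for myocardin, the cofactor restricted to smooth and heart muscle, had 5 counts over the GNC+NIR libraries (95% exact Poisson interval 1.62 to 11.7) and 1 count over the untreated ones (0.0253 to 5.57). The TCF genes were close between groups, with *Elk1* at 34.7 ± 2.56 CPM in GNC+NIR and 37.7 ± 1.21 CPM in untreated tumours (SD, n = 3 each). *Elk3* had 188.1 to 211.3 CPM in GNC+NIR and 160.9 to 211.5 CPM in untreated tumours, and *Elk4* had 84.8 to 121.6 CPM in GNC+NIR and 72.8 to 130.1 CPM in untreated tumours. Of the 11 tested cofactors and regulators, 9 had a higher and 2 a lower fitted value, none with an unadjusted p under 0.05, and the median log2 fold change was 0.10. Of 13 listed, 1 was not analysed here. *Limk1*, a kinase that acts on cofilin, was at 31.4 ± 1.51 CPM in GNC+NIR and 24.2 ± 6.43 CPM in untreated tumours, without overlap. *Rock2* was also higher without overlap, at 274.4 ± 5.41 CPM in GNC+NIR and 253.6 ± 18.6 CPM in untreated tumours. These were 2 of the 11 (18.2%), against 10.6% of all tested genes, and none was lower without overlap. *Fhl2*, a cofactor of SRF, was at 26.1 ± 5.08 CPM in GNC+NIR and 19.3 ± 9.15 CPM in untreated tumours, and the groups overlapped. Without untreated 2 its log2 fold change was 0.84 ± 0.25 (edgeR's quasi-likelihood test, adjusted p = 0.227). In that setting 5 of the 11 (45.5%) were higher without overlap, against 19.2% of all tested genes. *Rock1*, a kinase downstream of RhoA, was at 130 ± 8.24 CPM in GNC+NIR and 164.4 ± 72.2 CPM in untreated tumours.

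The immediate early genes that SRF drives with TCFs had the highest median of the SRF-related lists. Of 10, *Srf* among them, 8 had a higher fitted value in GNC+NIR tumours and 6 had an unadjusted p under 0.05, all higher, with a median log2 fold change of 0.64. Of all tested genes, 3.32% were higher at that p. Without GNC+NIR 3 the count was 3 of 10, where 0.702% of all tested genes were higher. In 6 of the 10 the groups did not overlap, all higher, against 10.6% of all tested genes. *Fos*, a subunit of AP-1, had 19.8, 79.4 and 86.5 CPM in GNC+NIR 1, 2 and 3, and 8.47, 9.37 and 10.7 CPM in untreated 1, 2 and 3. *Fosb*, a related AP-1 subunit, had 10.9, 74 and 151.1 CPM in GNC+NIR 1, 2 and 3, and 6.66, 1.56 and 8.34 CPM in untreated 1, 2 and 3. For both genes GNC+NIR 1 lay well below the other GNC+NIR libraries, though above every untreated one, and the log2 fold changes were 2.70 ± 0.54 and 3.79 ± 0.98 (SE). DESeq2 gave an adjusted p of 0.00114 for *Fos* and 0.00604 for *Fosb*, and edgeR's quasi-likelihood test did not call them. On the lower side, *Egr3* was at 5.85 ± 3.53 CPM in GNC+NIR and 9.17 ± 3.99 CPM in untreated tumours, and *Mcl1*, an inhibitor of cell death, at 306.2 ± 36.5 CPM in GNC+NIR and 350.4 ± 52.3 CPM in untreated tumours.

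Of the 14 tested genes listed as targets of SRF with MRTFs, 11 had a higher and 3 a lower fitted value. The median log2 fold change was 0.54. Not all of these genes are cytoskeletal, and whether SRF acts on them here was not tested. In 6 of the 14 the values were higher without overlap, and in 1, *Fhl1*, lower, against 10.6% higher and 10.2% lower of all tested genes. *Cyr61*, a secreted matrix protein, had 383.1, 328.9 and 459.5 CPM in GNC+NIR 1, 2 and 3, and 113, 138.4 and 113.8 CPM in untreated 1, 2 and 3. It had the smallest p of this list, with a log2 fold change of 1.68 ± 0.22 (SE) and a DESeq2 adjusted p of 1.83e-08, and edgeR's quasi-likelihood test did not call it. *Tgfb1i1* (Hic-5), a focal adhesion protein, had 3.22, 8.30 and 10.8 CPM in GNC+NIR 1, 2 and 3, and 3.33, 1.79 and 4.42 CPM in untreated 1, 2 and 3, with GNC+NIR 1 again lowest of its group. *Fhl1*, a LIM protein of muscle, was at 35.4 ± 3.29 CPM in GNC+NIR and 87.2 ± 41.3 CPM in untreated tumours, with a log2 fold change of -1.30 ± 0.37 (SE). *Tuft1* was at 3.69 ± 0.276 CPM in GNC+NIR and 5.86 ± 1.998 CPM in untreated tumours. The cytoplasmic actins were higher without overlap, *Actb* at 3634 ± 541.3 CPM in GNC+NIR and 2586 ± 347.4 CPM in untreated tumours, and *Actg1* at 2508 ± 23.8 CPM in GNC+NIR and 2015 ± 315.9 CPM in untreated tumours. *Filip1l* was at 0 in all 6 libraries.

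Of the 21 further contractile genes tested, 13 had a higher and 8 a lower fitted value, with a median log2 fold change of 0.30. *Tagln2*, the transgelin of non-muscle cells, had 293.9, 251.4 and 315.7 CPM in GNC+NIR 1, 2 and 3, and 139.5, 128.5 and 216.5 CPM in untreated 1, 2 and 3. The groups did not overlap, and the log2 fold change was 0.83 ± 0.26 (SE). *Synpo2*, an actin-binding protein of muscle, had 1.79, 3.13 and 6.22 CPM in GNC+NIR 1, 2 and 3, and 1.82, 1.12 and 1.595 CPM in untreated 1, 2 and 3, and the groups overlapped. These were the only genes of this list with an unadjusted p under 0.05, where 3.32% of all tested genes were higher. Of the 21, 5 were higher without overlap (23.8%) and 2 lower (9.52%), against 10.6% and 10.2% of all tested genes. Besides *Tagln2*, the higher ones were *Ppp1r12a*, *Cacna1c*, *Pdlim7* and *Nexn*. *Cald1* (caldesmon), which restrains myosin on actin, was lower without overlap, with 542.6, 555.9 and 363.7 CPM in GNC+NIR 1, 2 and 3, and 653.1, 723 and 659 CPM in untreated 1, 2 and 3. *Cnn3*, the acidic calponin, was likewise lower without overlap, with 443.7, 441.3 and 336.8 CPM in GNC+NIR 1, 2 and 3, and 490.4, 777 and 482.8 CPM in untreated 1, 2 and 3. Of the calponins measured, the abundant ones, *Cnn2* and *Cnn3*, had lower fitted values, while both transgelins, *Tagln* and *Tagln2*, had higher ones. None of these genes was called. Without untreated 2, *Cnn3* went from -0.52 ± 0.27 to -0.26 ± 0.15 (log2 fold change with SE) and *Tagln* from 0.56 ± 0.33 to 0.32 ± 0.26. In that setting *Cnn2* was at -0.29 ± 0.13 and *Tagln2* at 0.68 ± 0.19.

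Without untreated 2 the median log2 fold changes of the lists were 0.55 for the TCF targets, 0.29 for the MRTF targets, 0.09 for the further contractile genes and 0.08 for the cofactors and regulators. The lists were not tested as sets.

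**Figure D5:**
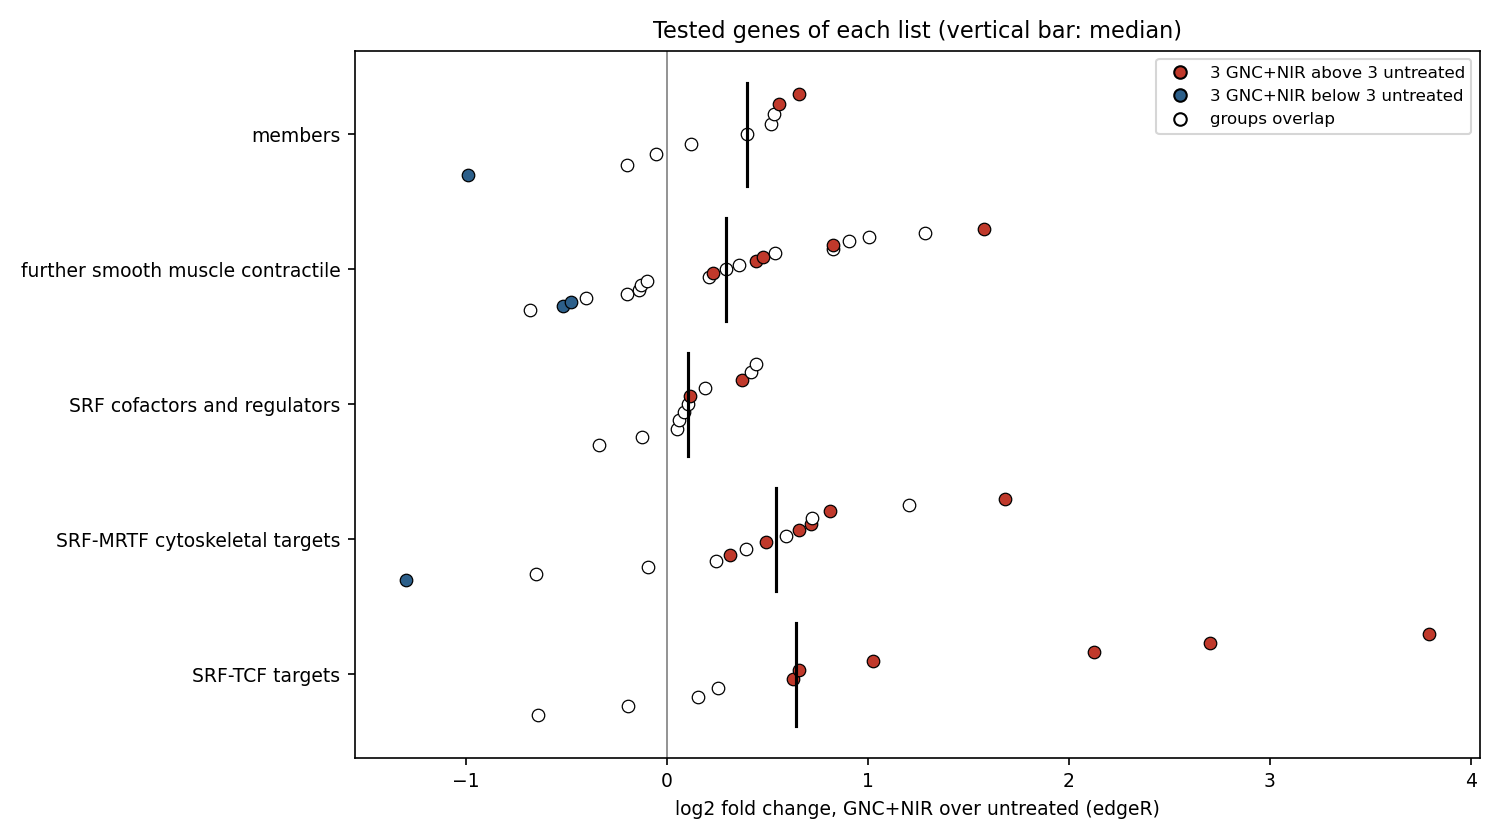
Log2 fold change, GNC+NIR over untreated, of each tested gene in the members and the other lists, 1 point per gene, with the median as a bar. Red points are genes whose GNC+NIR values all lie above the untreated ones, blue points those that all lie below, and open points those that overlap. The medians are 0.40 for the members, 0.30 for the further contractile genes, 0.10 for the cofactors and regulators, 0.54 for the MRTF targets and 0.64 for the TCF targets, and the points of every list lie on both sides of 0.

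Of the 7 tested pericyte markers, 5 had a higher and 2 a lower fitted value in GNC+NIR tumours. None had an unadjusted p under 0.05 in edgeR's quasi-likelihood test, and the median log2 fold change was 0.72. Higher fitted values were also found in 7 of 8 endothelial and 12 of 12 tested skeletal muscle markers. Without GNC+NIR 3 all 12 of the latter were lower. Of the macrophage markers 1 of 7 was higher, of the tested keratinocyte markers 0 of 7, and of all tested genes 6249 of 12517. *Rgs5*, a regulator of G-protein signalling in pericytes, had 10.4, 16.7 and 17.7 CPM in GNC+NIR 1, 2 and 3, and 4.39, 14.5 and 8.59 CPM in untreated 1, 2 and 3. *Notch3*, a receptor of mural cells, had 6.62, 20.95 and 22.6 CPM in GNC+NIR 1, 2 and 3, and 7.87, 1.56 and 8.83 CPM in untreated 1, 2 and 3. *Rgs5*, *Abcc9*, *Notch3* and *Mcam* were each highest of the 6 libraries in GNC+NIR 3 and lowest of their group in GNC+NIR 1, as *Acta2* was. Other markers of the list were not. *Kcnj8* was highest in GNC+NIR 2 (4.35 CPM). *Cspg4* was highest in untreated 1 (24.5 CPM), and in its GNC+NIR group it was lowest in GNC+NIR 3 (10.9 CPM). Outside this list, *Pecam1*, *Kdr* and *Tek* of the endothelial markers were also highest in GNC+NIR 3 and lowest of their group in GNC+NIR 1. So were *Thy1* and *Cthrc1* of the fibroblast markers and *Fos*, while endothelial *Cdh5* was highest in GNC+NIR 2. That order was therefore not particular to pericyte markers. The sum of the 8 pericyte markers, 338.4 to 663.7 CPM in GNC+NIR and 197.9 to 759.6 CPM in untreated tumours, is mostly *Pdgfrb*, a growth factor receptor that fibroblasts also make, which was lowest of the GNC+NIR group in GNC+NIR 3. *Higd1b*, a pericyte marker, was at 0 to 0.622 CPM.

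The 11 fibroblast and myofibroblast markers summed to 19360 to 25030 CPM in GNC+NIR and 21790 to 27040 CPM in untreated tumours, mostly *Col3a1*, a chain of type III collagen. Of them 5 were higher and 6 lower, with a median log2 fold change of -0.36. *Thy1*, a surface protein of fibroblasts, had 20.9, 35.6 and 41.4 CPM in GNC+NIR 1, 2 and 3, and 15.6, 10.3 and 14.8 CPM in untreated 1, 2 and 3. It was higher without overlap, with a log2 fold change of 1.26 ± 0.32 (SE). Of the 11, 1 was higher without overlap (9.09%) and 2 lower (18.2%), against 10.6% and 10.2% of all tested genes. The 2 lower ones were *Lum*, with a log2 fold change of -2.68 ± 0.78, and *Col3a1*, with -0.36 ± 0.25. In *Cthrc1* (1.67 ± 0.56) and *Dcn* (-1.22 ± 0.46) the groups overlapped. Endothelial markers summed to 126.8 to 195.3 CPM in GNC+NIR and 93.3 to 159.5 CPM in untreated tumours. Heart muscle markers summed to 67.2 to 78.8 CPM in GNC+NIR and 31.2 to 67.1 CPM in untreated tumours. That sum is almost all *Tnnt2*, cardiac troponin T, whose values overlapped between the groups, and *Myl7* was at 0 throughout. The 11 keratinocyte markers summed to 4.35 to 83.1 CPM in GNC+NIR and 5.89 to 1397 CPM in untreated tumours, and the groups overlapped through untreated 3. The 7 macrophage markers summed to 370.6 to 697.4 CPM in GNC+NIR and 874.2 to 1479 CPM in untreated tumours, without overlap, while *Cd68* had a log2 fold change of 0.05 ± 0.31 (SE). The part of these cells in the member values was not tested.

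Over the 6 libraries, the genes whose centred log2 profiles lay nearest to that of *Srf*, out of 10359 compared, were *Stk39*, *Lpcat4*, *Eif5b*, *Deptor* and *Ptges*, with root mean square differences of 0.0474 to 0.067. Nearest to *Acta2* were *Tnfsf9*, *Aplnr*, *Parp12*, *Naif1* and *Gcnt1*, at 0.104 to 0.166. The profile of *Acta2* thus had less close neighbours than that of *Srf*. All of these values share the same 6 libraries, untreated 2 among them, and are a description only.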

How the data were processed

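RNA came from 6 tumours, grouped by their titles and treatment labels. The RNA was extracted with Trizol and the library kit preserves strand, per the labels. TopHat (no version stated) and mm10 are named in the submitters' processing notes. How reads were counted, with which strand setting and annotation, is not given in the sources used here, so overlapping or antisense genes may share reads. The authors deposited whole-number counts for each gene symbol. With edgeR 4.0.16 (R 4.3.3), filterByExpr at a smallest count of 10 retained 12517 genes, TMM scaled the libraries, and the quasi-likelihood test was 2-sided with Benjamini-Hochberg adjustment and a threshold of 0.05. Exact permutation was not used, since 3 libraries against 3 allow no p below 0.1. CPM use the TMM library sizes.

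The members and lists were chosen with earlier results of these data known. Besides the members, the naming rule takes every SRF cofactor and, from each contractile or SRF-related list, the 2 genes with the smallest p in each direction. Other genes named, also those of the cell type lists, were chosen after their values were seen. Alternatives were other scalings, DESeq2 1.42.0, limma-voom (limma 3.58.1), other filters, leaving out each library, the replicate number as a block, and a loess trend (span 0.3) with GC content and length removed. GC content, length and positions come from the longest transcripts and genes of GENCODE M21 (mm10). Sequences come from RefSeq (GRCm38.p6), with 7 of the 10 members in its promoter table, and are printed only before the annotated starts of both sources, except the *Acta2* site. All pairs of libraries differed by more than sampling noise. The steps were tested on simulated data.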

Additional observations from a re-analysis of the deposited data

How the results depend on the processing

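No member was called under any alternative run. Of 400 combinations of gene and setting, 393 neither reversed direction nor crossed the threshold. These include *Tpm1* at 0.00 without untreated 2, and *Myl9* and *Synpo2* in DESeq2, which gave them no adjusted p. Over all genes, DESeq2 called 57, with *Cyr61*, *Fos* and *Fosb* among them, where edgeR's quasi-likelihood test called 0 with 416 higher and 607 lower at an unadjusted p under 0.05, and limma-voom called 0. Leaving out 1 library gave 0 to 4 called genes, the 4 without untreated 3, and 0 called members. The members without overlap between groups then numbered 3 to 5. Without untreated 2, 22.2% of tested members were higher and 22.2% lower without overlap, near the 19.2% and 20% of all tested genes. Without GNC+NIR 3 the shares were 22.2% and 11.1% of members, against 11.8% and 12% of all tested genes. The direction turned for *Acta2* (0.21 without GNC+NIR 1 and 0.05 without untreated 3, in a range of -0.40 to 0.21), for *Myl9* (-0.02 without GNC+NIR 3, in a range of -0.02 to 0.77) and for *Rock1* (0.08 without untreated 2, in a range of -0.52 to 0.08). The cause was not tested.

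The titles number the libraries 1 to 3 in each group. Same-numbered libraries had correlations of deviations of -0.182, -0.11 and 0.108, against -0.217 to 0.24 for libraries with different numbers. So few values show no pairing by number and cannot exclude it. With the replicate block 0 genes and 0 members were called, and *Srf* was at 0.68 and *Actg2* at -0.98, with an unadjusted p of 0.0633 by edgeR's quasi-likelihood test. Depth limits *Actg2*, *Tagln*, *Myl9* and *Myh11*, which rest on 7 to 67 counts per library, and *Cnn1*, which could not be tested.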
